A study of Mus musculus with 28 samples.

Results

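Sox17, Sox18, Sox7, Esam, Cdh5, Tek and Flt1 are genes known for their use in endothelial cells, the cells that line blood vessels. They were followed here by the H3K27me3 regions nearest to them in microglia, which at Cdh5 did not cover the gene itself. The members were the deposited regions whose nearest gene, by the authors' annotation, was 1 of these 7. All 7 genes had at least 1 region, and together they had 24 of the 26326 regions counted: 8 for Cdh5, 6 for Flt1, 5 for Sox17, 2 for Sox7, and 1 each for Sox18, Esam and Tek. H3K27me3 was measured by ChIP-seq (sequencing of the DNA that an antibody to the mark pulls down) in microglia sorted from brains of adult male wild-type C57BL/6 mice. Those called basal were from mice kept on regular diet and are labelled as low for CD44, CD45 and CD11b, a gate that the labels do not give for the other groups. The other groups came from mice fed 0.2% cuprizone, which kills oligodendrocytes and strips myelin, for 4 weeks, and were sorted by the surface proteins CD229 and CD11c into CD229-CD11c-, CD229+CD11c- and CD229+CD11c+ microglia. Diet and gate therefore cannot be told apart in a comparison with basal microglia. Each group had 3 libraries with counts, each from cells of pooled brains (2 to 6 mice), and nothing in the labels says that replicates came from separate animals, so p-values measure the spread between these libraries.

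H3K27me3 is the histone mark that Polycomb repressive complex 2 writes on the chromatin of genes kept silent, often over CpG-rich start sites of genes that belong to another lineage. Sox17, Sox18 and Sox7 form the SoxF family of transcription factors, which specify endothelial and lymphatic fate. Esam and Cdh5 (VE-cadherin) encode adhesion proteins of endothelial cell junctions. Tek (Tie2) is the receptor of the angiopoietins, and Flt1 (VEGFR1) is a receptor that binds VEGF-A and limits its signal; both are also known from some monocytes and macrophages. RNA was not part of these files, so whether the genes were transcribed was not analysed here.

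Promoter sequences of 2 members, Tek and Flt1, were available in RefSeq (GRCm38.p6), and they are shown because both lie inside a member region while their base composition differs. Each is the 250 bases before the start site, 5′ to 3′ on the gene's own strand, with every CG dinucleotide in capitals. Tek lies at chr4:94739039-94739288 on the plus strand and Flt1 at chr5:147726012-147726261 on the minus strand.
Tek: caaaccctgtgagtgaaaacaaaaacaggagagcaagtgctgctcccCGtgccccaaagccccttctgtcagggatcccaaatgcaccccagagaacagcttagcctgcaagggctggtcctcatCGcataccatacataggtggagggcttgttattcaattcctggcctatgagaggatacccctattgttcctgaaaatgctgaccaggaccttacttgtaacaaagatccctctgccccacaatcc
Flt1: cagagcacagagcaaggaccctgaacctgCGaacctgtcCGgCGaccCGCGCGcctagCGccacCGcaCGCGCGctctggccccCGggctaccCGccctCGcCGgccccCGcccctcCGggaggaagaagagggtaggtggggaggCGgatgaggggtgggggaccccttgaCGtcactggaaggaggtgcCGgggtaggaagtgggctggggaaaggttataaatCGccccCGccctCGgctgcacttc
The Tek window held 2 CG dinucleotides and 51.2% G and C, and the Flt1 window 23 and 70.4%. Over all 32851 promoter windows of this length the medians were 6 and 52.4%; 81.2% of windows held at least 2 CG dinucleotides and 13.3% at least 23. The letters GGAA, the core of ETS factor motifs, occurred 2 times in Tek and 4 times in Flt1; both strands were searched, and 93.4% of windows held it at least once. The letters ACAAT, a core of SOX motifs, occurred 2 times in Tek and 0 times in Flt1 and at least once in 27.7% of windows; a match is only a description.

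In basal microglia the mark covered the start sites of 6 of the 7 genes, and for 5 of them the cover was dense. Basal strength was taken from basal replicates 1 and 2, the libraries on which the authors called the regions and which are not among the 12 compared below. Tag density was the mean of the authors' log2 values less the log2 of the region's length in kb. By density the start regions of Esam, Sox18, Sox17, Flt1 and Sox7 stood at percentiles 99.1, 98.8, 98.3, 98.1 and 94.1 of all regions, and that of Tek at 44.1. The log2 enrichment over input in the authors' deposited table was 2.50 for Esam, 2.34 for Sox17, 2.02 for Flt1, 1.99 for Sox18, 1.83 for Sox7 and 1.17 for Tek, where the median of all regions was 1.49. The regions were called at a log2 enrichment of at least 1, so the mark at Tek was near the lower limit. These values are a description, as the authors chose the regions by this enrichment.

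The start regions differed in how much of each gene they held (mm10 coordinates, as deposited). The Sox17 start region, chr1:4487145-4508500, spanned 21.4 kb and the whole gene. The Sox18 start region, chr2:181666617-181673560, spanned 6.94 kb and the whole gene, and the Sox7 start region, chr14:63930809-63967070, spanned 36.3 kb and the whole gene. At Esam the region chr9:37524379-37534990 covered 67.5% of the gene body and also reached into Msantd2, the neighbouring gene. At the long receptor genes the start region covered only the 5′ end: chr4:94737293-94741637 held 1.88% of Tek, from the 5′ UTR of its first exon, and chr5:147712621-147735366 held 8.38% of Flt1, centred in its first intron. Within Flt1, the regions 40.5, 69.3 and 85.7 kb after the start site held a further 1.64%, 2.86% and 3.61% of the gene. Of all regions, 20.0% covered a start site. No region covered any part of the Cdh5 gene: its 8 regions lay 5.2 to 245.4 kb before the start site, and the nearest, chr8:104095017-104097841, lay in an intron of the predicted gene Gm29682. The remaining 10 regions belonged to Flt1 (5), Sox17 (4) and Sox7 (1); those of Sox17 lay 74.9 kb before and 15.7, 21.9 and 41.1 kb after its start site, and those of Flt1 60.3 and 24.1 kb before and 40.5, 69.3 and 85.7 kb after it.

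Among the 12 H3K27me3 libraries the tags in regions numbered 7740002 to 11362168. Levels below are CPM, counts scaled to a common TMM-adjusted library total; they are not divided by length and are compared only within a region. A region was called where edgeR's quasi-likelihood test over all 26326 regions gave a Benjamini-Hochberg adjusted p under 0.05. Fold changes are log2 values ± SE from 3 libraries a group. Whether the libraries of 2 groups overlap is a description, as the share of all regions without overlap is not given here. As the libraries are bulk samples, a lower share of cells with the mark and less mark per cell cannot be told apart. None of 22 genes of microglial and myeloid identity was overlapped by a region, although 16 regions had 1 of 5 of them as the nearest gene; as the regions were called on basal replicates 1 and 2, this checks nothing in the 12 libraries compared.

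**Figure D1:**
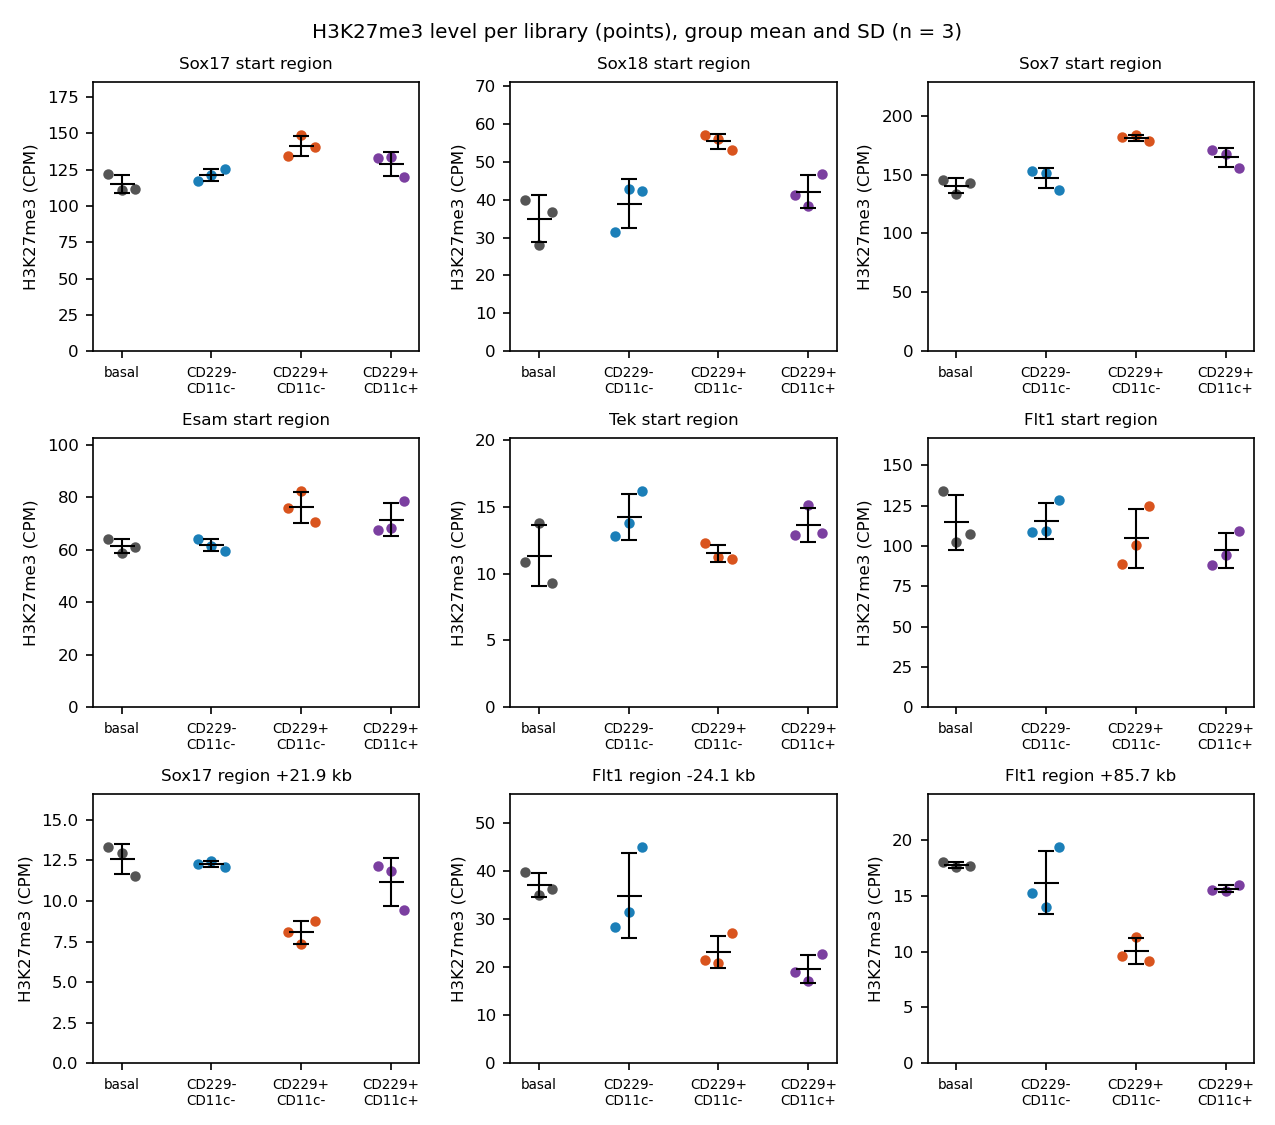
Each panel plots the H3K27me3 level (CPM, y axis from 0) of 1 region in the 12 libraries, by group (x axis); points are libraries, black marks the group mean and SD (n = 3). The CD229+CD11c- libraries sit above all basal libraries at the Sox17, Sox18, Sox7 and Esam start regions. They sit below all basal libraries in the bottom row, which shows the regions called lower in this subset against basal microglia. At the Tek and Flt1 start regions the CD229+CD11c- and basal libraries overlap.

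The 3 SoxF genes and Esam carried more H3K27me3 over their start sites in CD229+CD11c- than in basal microglia, while regions away from the Sox17 and Flt1 start sites had less. This comparison asks how the mark differs in cuprizone microglia that carry CD229 but not CD11c. Sox18, required for vessel and lymphatic development, held 40.0, 28.1 and 36.8 CPM in basal libraries and 56.9, 56.0 and 53.1 CPM in CD229+CD11c- libraries. The groups did not overlap, and the fold change was 0.66 ± 0.13 (adjusted p = 0.00094). Sox7 held 146, 133 and 143 CPM in basal and 182, 183 and 178 CPM in CD229+CD11c- libraries. Again every CD229+CD11c- library was above every basal one, with a fold change of 0.37 ± 0.07 (adjusted p = 0.00074). Sox17, a regulator of arterial fate, held 122, 111 and 112 CPM in basal and 134, 148.5 and 141 CPM in CD229+CD11c- libraries, a fold change of 0.30 ± 0.07 (adjusted p = 0.0074). At Esam the basal libraries held 64.1, 58.8 and 61.1 CPM and the CD229+CD11c- libraries 75.7, 82.2 and 70.5 CPM. These groups too were apart, with a fold change of 0.31 ± 0.08 (adjusted p = 0.015). Without CD229+CD11c- replicate 2 the calls at Sox17 (0.26, adjusted p = 0.054) and Esam (0.25, adjusted p = 0.10) were lost, and without basal replicate 4 that at Esam (0.28, adjusted p = 0.085).

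The 3 regions that fell in CD229+CD11c- microglia all lay outside the start sites. At 85.7 kb into Flt1 (chr5:147637302-147643258, the last intron of a short Flt1 transcript in the annotation) basal libraries held 18.0, 17.6 and 17.7 CPM and CD229+CD11c- libraries 9.65, 11.3 and 9.20 CPM. All CD229+CD11c- libraries were below all basal ones, and the fold change was -0.82 ± 0.14 (adjusted p = 0.00036). At 24.1 kb before Flt1 (chr5:147745357-147754927) the values were 39.9, 35.1 and 36.3 CPM in basal and 21.6, 20.9 and 27.04 CPM in CD229+CD11c- libraries, a fold change of -0.68 ± 0.15 (adjusted p = 0.0041). That region stood at percentile 90.3 of basal density. It is annotated as intergenic, covers no part of Flt1 and overlaps another gene, Gm35541. At 21.9 kb past the Sox17 start site (chr1:4473239-4477650) basal libraries held 13.3, 12.97 and 11.6 CPM and CD229+CD11c- libraries 8.10, 7.36 and 8.75 CPM. Its fold change was -0.64 ± 0.15 (adjusted p = 0.0064), opposite in sign to that of the Sox17 start region. All 3 falls stayed called with each library left out in turn.

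Set against all regions, 4 of 24 member regions were called higher, where the share over all regions was 9.52%, and 3 of 24 lower, where it was 3.47%. All 4 gains were start regions and all 3 losses were not. The share called higher was 35.3% of the 5258 regions that cover a start site, with a median fold change of 0.20, and the 6 member start regions had a median of 0.30. Of the 21068 regions that cover none, 3.09% were called higher and 3.79% lower, with a median of -0.06; the 18 such member regions had a median of -0.25. Gains at start sites were thus common over the whole table, and a count of 4 of 6 is given as a description.

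The start regions of Tek and Flt1 were not called. Tek held 10.9, 13.8 and 9.32 CPM in basal, 12.8, 13.8 and 16.1 CPM in CD229-CD11c-, 12.2, 11.2 and 11.1 CPM in CD229+CD11c- and 12.9, 15.1 and 13 CPM in CD229+CD11c+ libraries. CD229+CD11c- overlapped basal, with a fold change of 0.03 ± 0.16 (adjusted p = 0.95). Flt1 held 134, 103 and 107.5 CPM in basal, 109, 109 and 129 CPM in CD229-CD11c-, 88.9, 101 and 125 CPM in CD229+CD11c- and 88.2, 94.6 and 109.5 CPM in CD229+CD11c+ libraries. All 4 groups overlapped, and the fold change against basal was -0.13 ± 0.12 for CD229+CD11c- (adjusted p = 0.56) and -0.23 ± 0.12 for CD229+CD11c+ (adjusted p = 0.28). None of the 8 Cdh5 regions was called in any of the 6 comparisons by the test used here. The largest of them, 38.4 kb long and 47.5 kb before the gene, ranged from 119 to 140 CPM over the 12 libraries, with a fold change against basal of -0.06 ± 0.07 for CD229+CD11c- (adjusted p = 0.62) and 0.06 ± 0.07 for CD229+CD11c+ (adjusted p = 0.68). The Cdh5 region 187.7 kb upstream came nearest to a call, at -0.34 ± 0.13 in CD229+CD11c- microglia (adjusted p = 0.093), and was called at -0.43 without basal replicate 5 (adjusted p = 0.0496) and at -0.33 with a term for the library tag described below (adjusted p = 0.012).

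Of the other regions of Sox17, Sox7 and Flt1, none was called against basal microglia. The Sox17 regions 74.9 kb before and 15.7 and 41.1 kb after the start site ranged from 14.1 to 20.1, 7.07 to 14.9 and 5.80 to 8.35 CPM over the 12 libraries. The Sox7 region 18.8 kb upstream, of 22 to 47 tags a library, ranged from 2.48 to 4.70 CPM. The Flt1 region 60.3 kb upstream held 25.6, 25.9 and 24.3 CPM in basal, 19.7, 16.1 and 22.4 CPM in CD229+CD11c- and 16.0, 16.4 and 23.2 CPM in CD229+CD11c+ libraries. Both CD229+ groups lay below basal without overlap, at -0.38 ± 0.15 (adjusted p = 0.11) and -0.44 ± 0.15 (adjusted p = 0.091). The second of these was called without CD229+CD11c+ replicate 3, at -0.64 (adjusted p = 0.017). The Flt1 regions 40.5 and 69.3 kb into the gene ranged from 3.85 to 7.90 and from 8.10 to 13.1 CPM.

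**Figure D2:**
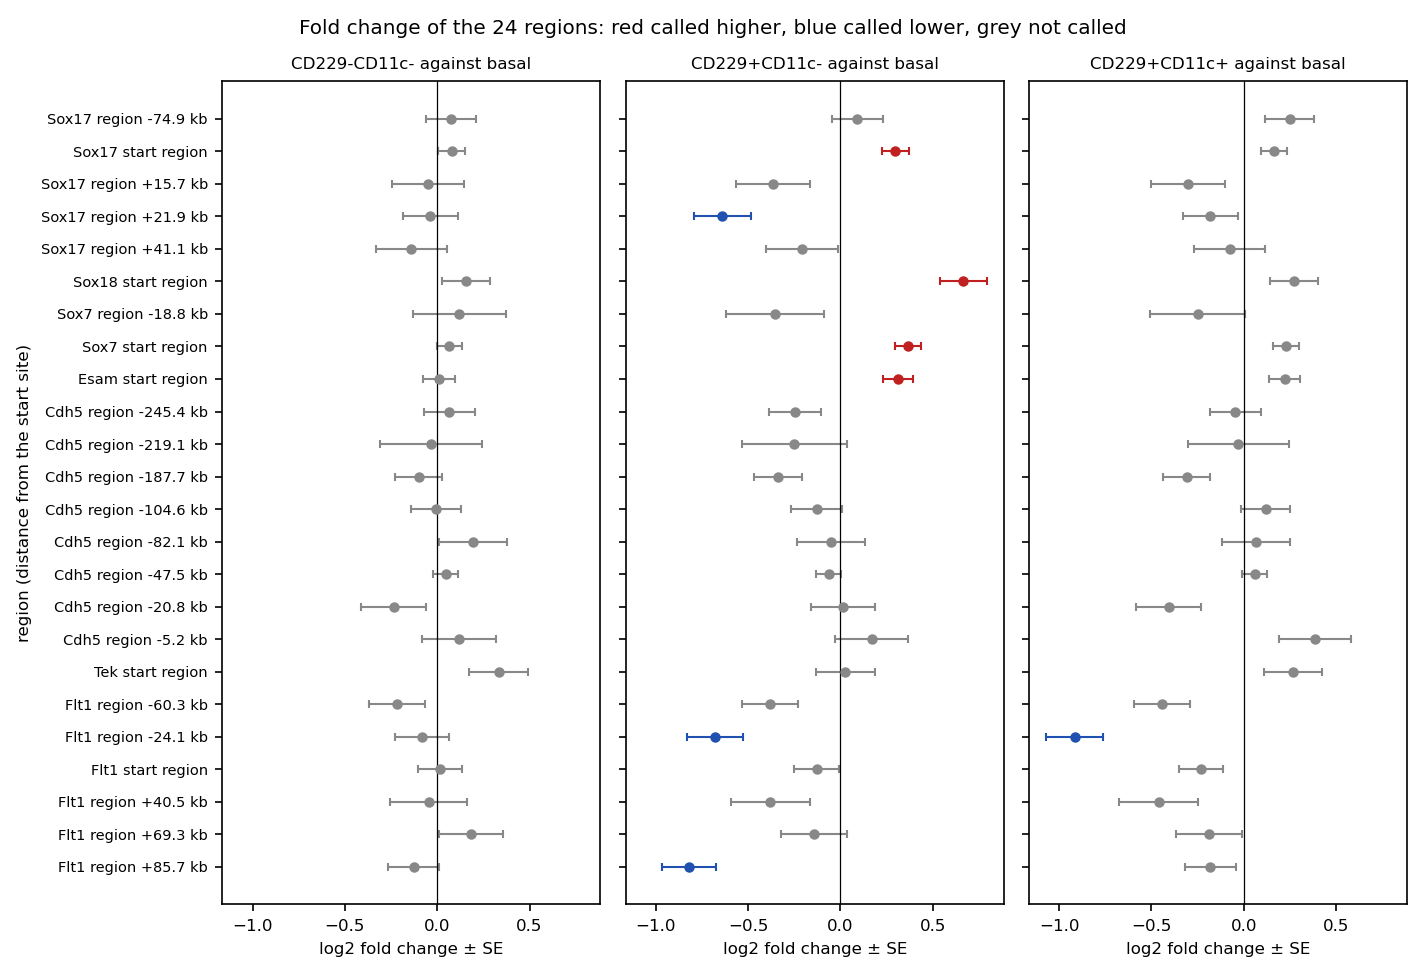
Log2 fold change ± SE (x axis, n = 3 libraries a group) of the 24 regions (y axis) in the 3 cuprizone subsets against basal microglia; red is called higher, blue called lower, grey not called. CD229-CD11c- microglia have no called region, CD229+CD11c- microglia 4 higher and 3 lower, and CD229+CD11c+ microglia 1 lower.

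**Figure D3:**
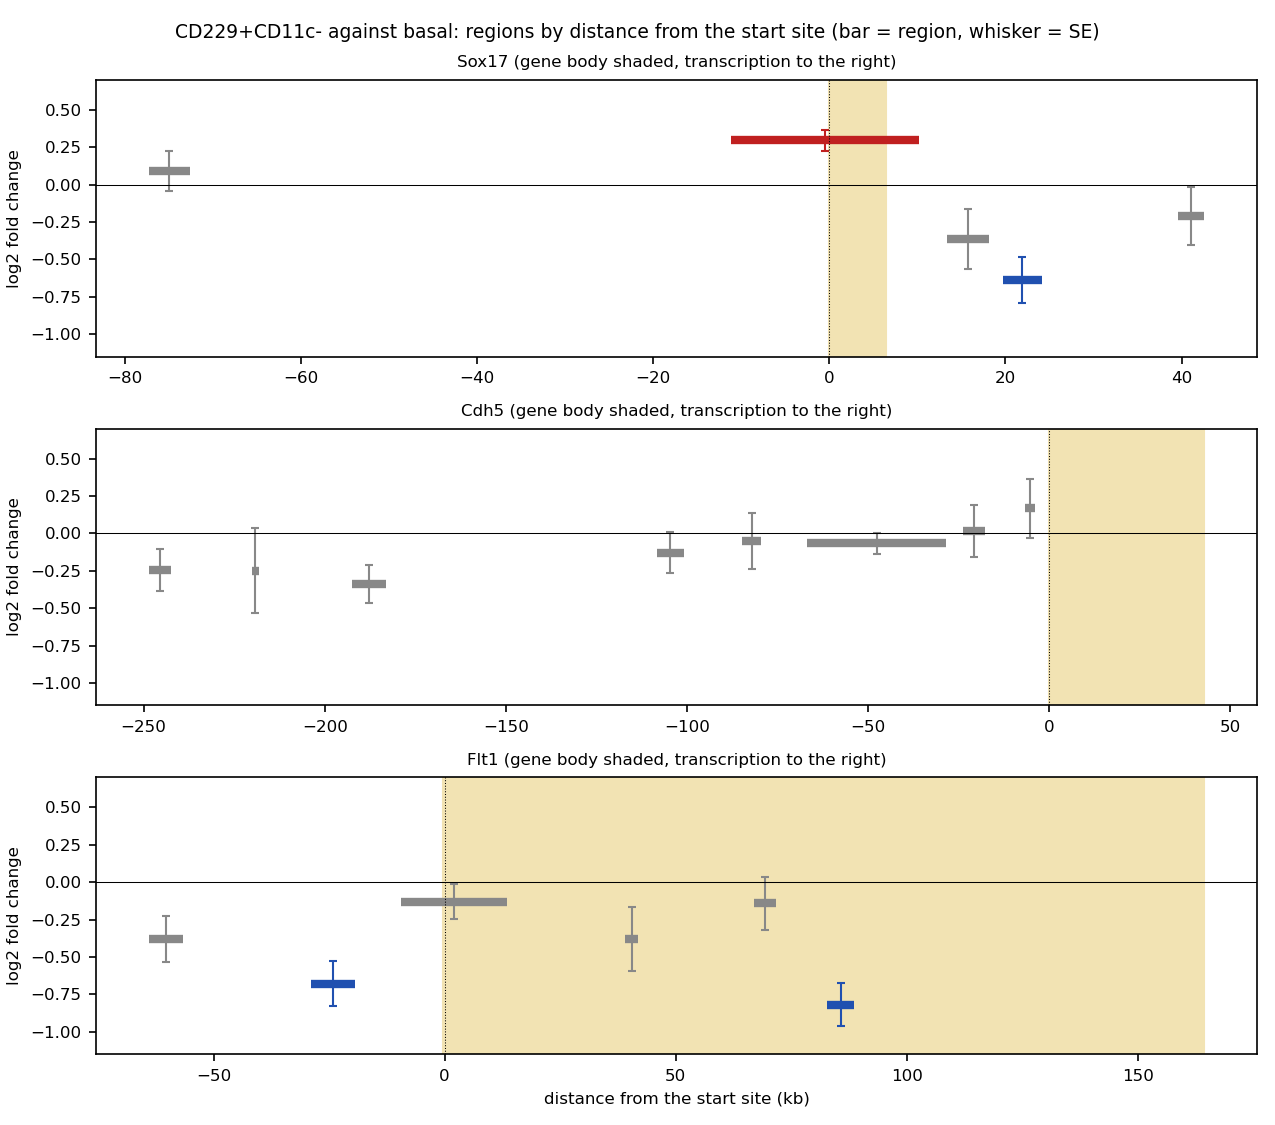
Regions near Sox17, Cdh5 and Flt1 by distance from the start site (x axis, kb, transcription to the right), at their log2 fold change in CD229+CD11c- against basal microglia (y axis; bar length is the region's length, whiskers are SE). The red bar lies over the Sox17 start, the blue bars lie 21.9 kb after the Sox17 start and 24.1 kb before and 85.7 kb after the Flt1 start, and all 8 Cdh5 bars are grey and lie before the gene.

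In cells with both CD229 and CD11c, 1 member region was called lower than in basal microglia and 0 higher, a count that rose with a term for a tag, PE150, that the names of 2 libraries in each group carry. With that term 3 regions were called higher, the start regions of Sox18 (0.27, adjusted p = 0.039), Sox7 (0.23, adjusted p = 0.0028) and Esam (0.22, adjusted p = 0.024), and 5 lower. The 5 were the Flt1 region 24.1 kb upstream, the Flt1 start region (-0.23, adjusted p = 0.0046), the Flt1 region 60.3 kb upstream (-0.46, adjusted p = 0.0028) and the Cdh5 regions 187.7 kb (-0.31, adjusted p = 0.024) and 20.8 kb upstream (-0.40, adjusted p = 0.040). The Flt1 region 24.1 kb upstream held 18.9, 17.0 and 22.7 CPM, all below the basal libraries, with a fold change of -0.92 ± 0.15 (adjusted p = 0.0013). Without the PE150 term it was the one member region called in both CD229+ subsets against basal, comparisons that share the basal libraries. The share of all regions called without the term was 4.33% higher and 1.47% lower. Shares with the term are not given here, so the 3 and 5 regions called with it have no background beside them. Sox7 held 171, 167 and 156 CPM, above every basal library but short of the threshold, at 0.23 ± 0.07 (adjusted p = 0.055), and it was called without CD229+CD11c+ replicate 3 (0.27, adjusted p = 0.042) and by DESeq2 (0.23, adjusted p = 0.038). Esam held 67.5, 68.2 and 78.6 CPM, also above every basal library, at 0.22 ± 0.08 (adjusted p = 0.13). Sox18, with 41.2, 38.3 and 46.8 CPM, and Sox17, with 133, 134 and 120 CPM, overlapped basal libraries, at 0.27 ± 0.13 (adjusted p = 0.23) and 0.16 ± 0.07 (adjusted p = 0.20). The 2 other regions that had fallen in CD229+CD11c- microglia were not called here: 85.7 kb into Flt1 the libraries held 15.5, 15.5 and 16.0 CPM (-0.18 ± 0.14, adjusted p = 0.49), and 21.9 kb past Sox17 they held 12.2, 11.9 and 9.46 CPM (-0.18 ± 0.15, adjusted p = 0.52).

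CD229-CD11c- microglia of the same diet had no called region, among the members or over the table (0% of 26326). By unadjusted p under 0.05 there were 1103 regions, 1 of them a member, the Tek start region at 0.33 ± 0.16 (adjusted p = 0.98). DESeq2 also called 0 member regions. Sox18 held 31.5, 42.9 and 42.3 CPM in these libraries, Sox7 153, 152 and 137 CPM, Sox17 117, 121 and 126 CPM and Esam 64.2, 61.6 and 59.5 CPM. All 4 overlapped the basal libraries, with fold changes of 0.15 ± 0.13, 0.07 ± 0.07, 0.08 ± 0.07 and 0.01 ± 0.08. The Flt1 regions 24.1 kb upstream and 85.7 kb downstream held 28.4, 31.4 and 45.0 CPM and 15.2, 14.01 and 19.3 CPM, which also overlapped basal.

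Compared with CD229-CD11c- microglia of the same diet, CD229+CD11c- microglia had more of the mark at Sox18, Sox7 and Esam and less at the 3 regions away from start sites. These groups share the diet and differ in the sort. Sox18 was higher by 0.51 ± 0.13 (adjusted p = 0.013), Sox7 by 0.30 ± 0.07 (adjusted p = 0.0068) and Esam by 0.30 ± 0.08 (adjusted p = 0.028), and at each of them the groups did not overlap. Sox17, at 0.22 ± 0.07, did not overlap either but missed the threshold (adjusted p = 0.068). With replicate number as a block, Sox17 was called too, at 0.21 (adjusted p = 0.0025). Deviations of same-number libraries of these groups correlated at 0.13 to 0.46, and those of different numbers at up to 0.25. The Flt1 region at 85.7 kb was lower, at -0.69 ± 0.15 (adjusted p = 0.0033), the Flt1 region 24.1 kb upstream at -0.60 ± 0.15 (adjusted p = 0.017) and the Sox17 region at 21.9 kb at -0.60 ± 0.16 (adjusted p = 0.016). Over all regions 6.75% were called higher and 1.6% lower without the block. Leaving out CD229+CD11c- replicate 1 or replicate 2 left only Sox7 and the Flt1 region at 85.7 kb called among the members. The values at Sox18 were then 0.49 (adjusted p = 0.0512) and 0.50 (adjusted p = 0.0503), at Esam 0.30 (adjusted p = 0.070) and 0.24 (adjusted p = 0.15), at the Flt1 region upstream -0.55 (adjusted p = 0.078) and -0.53 (adjusted p = 0.093), and at the Sox17 region -0.61 (adjusted p = 0.052) and -0.54 (adjusted p = 0.079). Without CD229-CD11c- replicate 1 Sox18 was not called (0.38, adjusted p = 0.075). Without CD229-CD11c- replicate 2 Esam (0.30, adjusted p = 0.081) and the Sox17 region at 21.9 kb (-0.59, adjusted p = 0.0506) were not. Without CD229-CD11c- replicate 3 Esam (0.27, adjusted p = 0.053) and the Flt1 region upstream (-0.36, adjusted p = 0.087) were not, and the Sox17 start region was called (0.24, adjusted p = 0.041).

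The gains of this comparison also went with basal density. With the offsets for basal enrichment and density together that are described below, Sox18 (0.19, adjusted p = 0.49), Sox7 (0.090, adjusted p = 0.65) and Esam (-0.12, adjusted p = 0.60) lost their calls, Esam with a change of sign. The Sox17 region at 21.9 kb was not called either (-0.52, adjusted p = 0.079), whereas the Flt1 start region was called lower (-0.45, adjusted p = 0.0022). With the block and these offsets together the 3 gains were again not called, with adjusted p of 0.19, 0.30 and 0.30. The Sox17 region at 21.9 kb was then called lower (-0.52, adjusted p = 0.031), as were the Flt1 start region (-0.46, adjusted p = 2.64e-10) and the Cdh5 region 47.5 kb upstream (-0.15, adjusted p = 0.048). With scaling by total counts Sox7 (0.19, adjusted p = 0.062) and Esam (0.19, adjusted p = 0.14) were not called.

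CD229+CD11c+ microglia differed from CD229-CD11c- microglia at 1 member region without a replicate block, again the Flt1 region 24.1 kb upstream, which was lower, at -0.83 ± 0.16 (adjusted p = 0.011); over all regions 0.395% were called higher and 0.152% lower. With the block (same-number correlations 0.13 to 0.42, different-number up to 0.18), 4 were called, where 5.9% of all regions were higher and 1.79% lower. They were the Flt1 region 24.1 kb upstream (-0.82, adjusted p = 5e-09), the Flt1 start region (-0.25, adjusted p = 0.0019), Sox7 (0.16, adjusted p = 0.028) and Esam (0.21, adjusted p = 0.044). With the block and both offsets together the 2 gains were not called (0.11, adjusted p = 0.24, and 0.077, adjusted p = 0.65), and both Flt1 regions stayed lower. In the fit without block or offsets, the Flt1 region 24.1 kb upstream was at -0.81 without CD229+CD11c+ replicate 1 (adjusted p = 0.089) and at -0.74 without replicate 2 (adjusted p = 0.11). Between the 2 CD229+ subsets 1 member region was called: the Flt1 region at 85.7 kb was higher in CD229+CD11c+ than in CD229+CD11c- microglia by 0.64 ± 0.15 (adjusted p = 0.040), where 0.0532% of all regions were called higher and 0.771% lower. That call was lost whichever library of the 2 groups was left out, at 0.58 to 0.73 with an adjusted p of up to 0.22. Sox18 was lower in CD229+CD11c+ than in CD229+CD11c- microglia without overlap, at -0.39 ± 0.13, short of the threshold (adjusted p = 0.16), and it was called with the PE150 term (-0.40, adjusted p = 0.0025). In the authors' deposited table this difference was -0.39 with an adjusted p of 0.013, while the Flt1 region at 85.7 kb had an adjusted p of 1 there.

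The gains lay where the basal density of the mark was high. With regions ranked by basal tag density, the decile medians of the CD229+CD11c- fold change over basal were at most 0.0045 in deciles 1 to 8, with a lowest value of -0.09, 0.08 in decile 9 and 0.31 in decile 10, where 53.1% of regions were called higher and 2.7% lower. With regions ranked by basal enrichment, decile 1 had a median of -0.09 and decile 10 one of 0.21, with 34.8% called higher. Density and enrichment were only weakly related over all regions (Spearman's rho 0.17, a description across regions). All 4 members that gained were in the top decile of density. Within it, Sox17 and Esam lay near its median, Sox7 above the median and Sox18, at 0.66, above the upper quartile of 0.49. The Flt1 start region, with a density close to that of Sox17, lay at -0.13, below the lower quartile of 0.11. Over the 24 member regions, Spearman's rho between fold change and density was 0.49 and between fold change and enrichment 0.25; these regions share libraries, and some share a gene.

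Of 2 sets of regions strong by only 1 of the 2 measures, the set strong in density was called higher more often. The sets were cut at unlike deciles and were not matched for tags a region, so their shares are a description. Of the 773 regions in the top density decile but in deciles 1 to 8 of enrichment, 29.9% were called higher and 3.88% lower in CD229+CD11c- microglia. Their median fold change was 0.15. The 2 members among these 773 regions went opposite ways: the Sox7 start region was called higher and the Flt1 region 24.1 kb upstream lower. In the 803 regions of density decile 10 and enrichment decile 9, 49.8% were called higher; of the 2 members there the Sox18 start region was, and the Flt1 start region was not. Of the 2251 regions in deciles 9 and 10 of enrichment but the lower 5 deciles of density, 2.53% were called higher, with a median of -0.05. The Sox7 region 18.8 kb upstream and the Cdh5 region 219.1 kb upstream were of this kind, and neither was called, at -0.35 ± 0.26 and -0.25 ± 0.28. These 2 held only 22 to 47 and 24 to 70 tags a library, which makes a call less likely. In the 1057 regions in the top decile of both, which held the Sox17 and Esam start regions, 72.5% were called higher with a median of 0.44, more than the 0.30 and 0.31 of these members.

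**Figure D4:**
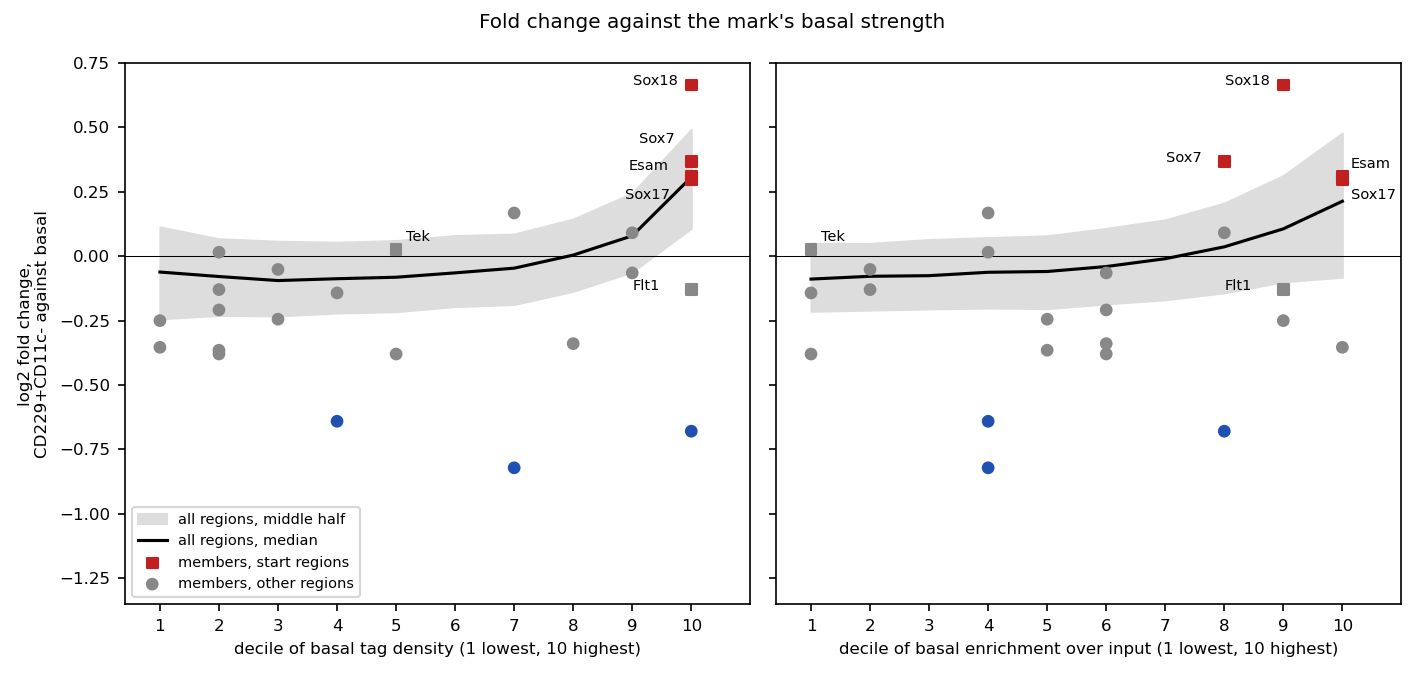
Log2 fold change, CD229+CD11c- against basal (y axis), by decile of basal tag density (left) and of basal enrichment over input (right). The line is the median of all regions and the band their interquartile range; squares are member start regions, circles other member regions, red called higher, blue called lower; the 4 red squares all stand in density decile 10, where the median is 0.31.

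With basal density taken into account, none of the 4 gains was called and all 3 losses were. For this, loess curves of each library's deviation against basal enrichment, basal density or both were used as offsets in the same test. With offsets for both, the fold change in CD229+CD11c- against basal was 0.33 at Sox18 (adjusted p = 0.082), 0.15 at Sox7 (adjusted p = 0.24), -0.095 at Sox17 (adjusted p = 0.55) and -0.15 at Esam (adjusted p = 0.37), so none was called and Sox17 and Esam changed sign. With offsets for enrichment alone, Sox18 (0.55, adjusted p = 0.0076) and Sox7 (0.31, adjusted p = 0.0037) stayed called, and Sox17 (0.11, adjusted p = 0.42) and Esam (0.12, adjusted p = 0.42) did not. The losses stayed called with offsets for both: -0.77 at the Flt1 region at 85.7 kb (adjusted p = 0.0013), -0.84 at the Flt1 region 24.1 kb upstream (adjusted p = 0.00063) and -0.55 at the Sox17 region at 21.9 kb (adjusted p = 0.029). The Flt1 start region was then called lower as well, at -0.45 for CD229+CD11c- (adjusted p = 0.0012) and -0.32 for CD229+CD11c+ (adjusted p = 0.031). Relative to regions of like basal strength, no SoxF or Esam start region was thus called higher, and 4 member regions were called lower for CD229+CD11c- and 2 for CD229+CD11c+. The shares of all regions called with these offsets are not given here, so these counts have no background beside them and are a description.

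**Figure D5:**
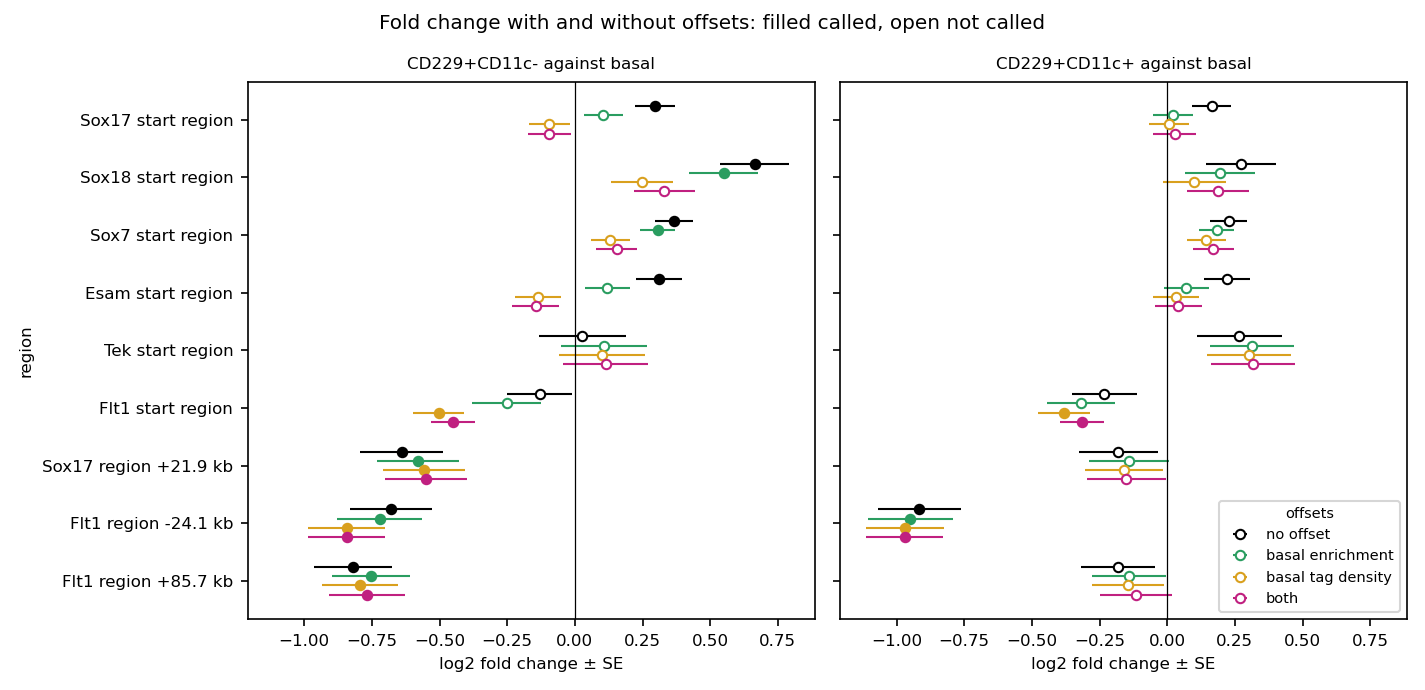
Log2 fold change ± SE (x axis) of the 6 start regions and the 3 regions that fell (y axis), without offsets and with offsets for basal enrichment, basal tag density or both, for CD229+CD11c- (left) and CD229+CD11c+ (right) against basal microglia; filled points are called. The start regions of Sox18, Sox7, Esam and Sox17 lose their calls with density offsets, and the Flt1 start region becomes called lower.

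Values that move with these results are given here. The TMM factors were 0.944 to 0.949 in CD229+CD11c- libraries and 1.03 to 1.06 in basal libraries, and scaling by total counts instead shifted the median fold change of all regions in this comparison by -0.14. On that scale Sox18 (0.53) and Sox7 (0.23) were still called higher, Sox17 (0.16, adjusted p = 0.11) and Esam (0.17, adjusted p = 0.13) were not, and 6 member regions were called lower. Of the 3 libraries in each group, the one without the PE150 tag is basal replicate 3 or replicate 3 of a cuprizone subset. With the tag as a term all 7 calls in CD229+CD11c- against basal stood, and the Cdh5 region 187.7 kb and the Flt1 region 60.3 kb upstream (-0.39, adjusted p = 0.010) were called lower besides. Within the tagged libraries the fold changes in CD229+CD11c- against basal were 0.80 at Sox18, 0.40 at Sox7, 0.34 at Sox17 and 0.39 at Esam, and -0.76, -0.75 and -0.66 at the 3 regions that fell, all called. The untagged pair, 1 library against 1, differed by 0.41, 0.29, 0.20 and 0.14 and by -0.95, -0.56 and -0.59 in the same order. In CD229+CD11c+ against basal microglia the tagged libraries alone also called Sox7 (0.29), Sox17 (0.26) and Sox18 (0.29) higher and the Flt1 start region (-0.20) and the Flt1 region 60.3 kb upstream (-0.63) lower.

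The authors' deposited table gave the member start regions of Sox18 (0.67, adjusted p = 3.35e-06), Sox7 (0.38, adjusted p = 2.28e-05), Sox17 (0.30, adjusted p = 0.0035) and Esam (0.32, adjusted p = 0.011) as higher in CD229+CD11c- than in basal microglia. In the authors' deposited table the 3 regions lower in that comparison were the Flt1 regions at 85.7 kb (-0.81) and 24.1 kb upstream (-0.67) and the Sox17 region at 21.9 kb (-0.63). For CD229+CD11c+ against basal microglia the authors' deposited table also passed the Sox7 start region (0.23, adjusted p = 0.033) and the Flt1 region 60.3 kb upstream (-0.44, adjusted p = 0.043), which did not pass the test used here. For CD229+CD11c- against CD229-CD11c- microglia the authors' deposited table did not pass Esam (0.31, adjusted p = 0.078) or the Sox17 region at 21.9 kb (-0.60, adjusted p = 0.072), which passed here.

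In a wider set of vascular genes most of the called gains lay over start sites, as they did over all regions. Of 125 further endothelial and mural genes, 83 were the nearest gene of 253 regions. In CD229+CD11c- against basal microglia 43 of these regions were called higher and 6 lower, where the shares over all regions were 9.52% and 3.47%, with a median fold change of -0.0032 beside -0.026 over all regions. By role, 15 of 107 regions of transcription factors, 9 of 40 of ligands, 5 of 31 of receptors, 3 of 30 of adhesion and junction genes, 5 of 29 of other endothelial genes and 6 of 16 of mural genes were higher. Of the 59 that cover a start site 35 were higher and 0 lower, with a median of 0.33, where 35.3% of all start-covering regions were higher. With offsets for both measures of basal strength 21 of the 253 were higher and 3 lower. The shares above are from the fit without offsets, and those with offsets are not given here, so no excess is read from these counts. In CD229+CD11c+ against basal microglia 17 were higher and 2 lower, beside 4.33% and 1.47% of all regions. These genes were listed from general knowledge, with earlier results of these data known.

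The regions of this wider list with the smallest adjusted p belonged to 6 genes. Lef1, a Wnt-responsive factor that is also a lymphocyte gene, held 152 ± 2.06 CPM (SD, n = 3) in basal microglia, 251 ± 5.36 CPM in the CD229+CD11c- subset and 214 ± 5.60 CPM in the CD229+CD11c+ subset; its fold changes were 0.73 ± 0.07 and 0.50 ± 0.07, and 0.50 and 0.38 with offsets. Adgra2, a receptor needed for vessels to enter the brain, held 32.6 ± 3.36, 61.4 ± 1.17 and 43.6 ± 4.16 CPM in the same order, a fold change of 0.91 ± 0.09 in CD229+CD11c- (adjusted p = 1.32e-06; 0.59 with offsets). It was lower in CD229+CD11c+ than in CD229+CD11c- microglia, at -0.49 ± 0.09 (adjusted p = 0.018), a call lost with both offsets (-0.35, adjusted p = 0.17), as was its gain in CD229+CD11c+ against basal (0.42 without and 0.24 with offsets, adjusted p = 0.17). The forkhead factors Foxc1 and Foxq1 rose in both CD229+ subsets: Foxc1 by 0.70 ± 0.07 without CD11c and by 0.40 ± 0.07 with it, Foxq1 by 0.83 ± 0.11 and 0.73 ± 0.11. Foxc1 was also lower in CD229+CD11c+ than in CD229+CD11c- microglia, at -0.30 ± 0.07 (adjusted p = 0.040). That call was lost with both offsets (-0.063, adjusted p = 0.88). Pdpn, a lymphatic membrane glycoprotein, rose by 0.69 ± 0.09 and 0.60 ± 0.09. The region nearest to Vegfa, the ligand that Flt1 binds, lay 67.6 kb from its start site and rose by 0.70 ± 0.08 and 0.61 ± 0.08. All 6 also kept their call in CD229+CD11c- with both offsets, with adjusted p from 3.78e-05 to 0.0089.

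Lists of other lineages that the sort could hold are given beside the shares over all regions, 9.52% higher and 3.47% lower. In CD229+CD11c- against basal microglia 5 of 18 regions of oligodendrocyte genes were higher and 1 lower, with a median of 0.22. For astrocyte genes 7 of 37 were higher and 2 lower, with a median of 0.0030, and for lymphoid genes 8 of 56 and 0, with a median of -0.03. Among 16 regions nearest to genes of microglial identity 1 was higher and 0 lower, with a median of -0.11. The 24 member regions had a median of -0.14. Whether cells of another type in the sort had a part in the members' values was not tested.

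Over the 12 libraries the 4 gaining start regions had positive correlations with each other and negative ones with the 3 regions that fell, which were set apart by opposite calls in the same libraries. Pearson's r of log2 CPM, given as a description over libraries that include the contrasts above, was 0.87 between Sox17 and Sox7, 0.81 between Sox7 and Esam, 0.78 between Sox17 and Sox18 and 0.68 between Sox17 and Esam. Between the Sox17 start region and the Sox17 region at 21.9 kb it was -0.69, and over the 12 pairs of a gaining and a falling region it ran from -0.87 (Esam and the Sox17 region at 21.9 kb) to -0.38 (Sox18 and the Flt1 region 24.1 kb upstream). The most like regions of other genes are named by their nearest gene, which they need not cover. They were those nearest to Foxl1 (0.99), Emx2os (0.99) and Tbx18 (0.99) for Sox7, Foxj1 (0.95), Olfr1372-ps1 (0.94) and Grb7 (0.93) for Sox18, Zdbf2 (0.96), Foxd1 (0.95) and Scin (0.95) for Sox17, and Spry4, Frmd6 and Sowahb (each 0.94) for Esam. For the Flt1 region 24.1 kb upstream they were at Cd72, Rai14 and Unc119 (each 0.98), for the Flt1 region at 85.7 kb at Sertad4, Lncbate1 and Setmar (each 0.94), and for the Sox17 region at 21.9 kb at Slc25a2 (0.95), Ctse (0.93) and Areg (0.92).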

How the data were processed

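The authors' deposited table of raw counts gives whole tag counts per region for 12 H3K27me3 libraries over regions called in mm10, per the file headers, with HOMER on basal replicates 1 and 2 against input (log2 fold of at least 1, adjusted p-value under 0.05). The deposited region table gives the authors' log2 values and log2 enrichment, the deposited score column was not used, and the second table gives the authors' normalized signal, log2 fold changes and p-values, used only where named. The submitters' processing notes list HOMER, DESeq2, STAR 2.7.0f, Bowtie2 2.3.4.1 and fastp 0.20.0, with the aligner of these files not given in the sources used here. The counts were tested with edgeR 4.0.16 (filterByExpr, which removed 0 regions; TMM; robust quasi-likelihood F-test; 4 groups in 1 model), with p-values adjusted over all 26326 regions of a comparison; the script was tested on simulated data. CPM are TMM-scaled. Offsets were loess fits (span 0.3, degree 1). Alternatives were DESeq2 1.42.0, other scalings, count filters, 2-group fits, a PE150 term, a replicate block and each library left out; tagged libraries alone and the block with both offsets were chosen after seeing the data. The labels do not state that replicate numbers are paired. Deviations of same-number libraries of CD229-CD11c- and the CD229+ subsets correlated at 0.13 to 0.46 and 0.13 to 0.42, which passed the rule of every pair over 0.1. Of 9 cuprizone libraries 7 correlated best with their own number. However, CD229-CD11c- replicate 2 correlated more with replicate 1 of the CD229+CD11c- and CD229+CD11c+ subsets (0.25 and 0.18) than with replicate 2 (0.13 and 0.13). In each subset replicate 3 is also the one without the PE150 tag. The numbers thus carry the tag and do not show that replicates 1 and 2 are paired. Members, lists and named genes (all member regions; 4 vascular genes of smallest adjusted p in each of 2 comparisons; 3 most like regions) were chosen with earlier results of these data known. The inputs of the 12 libraries were not analysed here.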

Additional observations from a re-analysis of the deposited data

Results flagged for a closer look

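Effects against the shared basal group differed between cuprizone subsets, by the test of the difference itself, at 6 member regions of CD229+CD11c- against CD229-CD11c- microglia: the Sox18 start region 0.51 (adjusted p = 0.013), Esam start region 0.30 (adjusted p = 0.028), the Sox17 region at 21.9 kb -0.60 (adjusted p = 0.016), the Flt1 region 24.1 kb upstream -0.60 (adjusted p = 0.017), the Flt1 region at 85.7 kb -0.69 (adjusted p = 0.0033) and the Sox7 start region 0.30 (adjusted p = 0.0068). Over all regions 6.75% were called higher and 1.6% lower there. Of 6 single-library omissions, Esam kept its call in 2 and Sox18, the Sox17 region and the Flt1 region 24.1 kb upstream in 3. Sox7 and the Flt1 region at 85.7 kb kept theirs in all 6. With offsets for basal enrichment and density together, Sox18, Sox7, Esam and the Sox17 region were not called. Between CD229+CD11c+ and CD229-CD11c- microglia the Flt1 region 24.1 kb upstream differed by -0.83 (adjusted p = 0.011), where 0.395% of all regions were called higher and 0.152% lower. That call was kept in 4 of 6 omissions. Between CD229+CD11c+ and CD229+CD11c- microglia the Flt1 region at 85.7 kb differed by 0.64 (adjusted p = 0.040), a call that no single-library omission kept. There 0.0532% of all regions were called higher and 0.771% lower. With 3 libraries a group, single outlying libraries were not tested for.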

How the results depend on the processing

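Counts are member regions called. Shares over all regions in these settings are given only where stated above or below. The cause of each change was not tested unless the setting's construction gives it. CD229+CD11c- against basal had 7, and 4 with offsets for density or for both. By direction, 2 were higher and 3 lower with enrichment offsets and 2 and 6 with total-count scaling. In tagged libraries 4 were higher and 4 lower, and with a PE150 term 4 and 5. Leaving out 1 library gave 5 to 8. CD229+CD11c+ against basal had 1, and 3 with only these 2 groups fitted, 8 with a PE150 term, 2 with density or both offsets, 6 in tagged libraries alone and 2 with DESeq2 (omissions 1 to 3). CD229+CD11c- against CD229-CD11c- had 6, and 3 with density or both offsets, of which 2 were among the 6 (omissions 2 to 6). In that comparison 4 were higher and 3 lower with DESeq2, with a PE150 term or in tagged libraries. The added gain was the Sox17 start region, with adjusted p of 0.0499, 0.0071 and 0.0062 in these settings. With total-count scaling 1 was higher and 4 lower, and with enrichment offsets 1 and 3. CD229+CD11c+ against CD229-CD11c- had 1, and 0 with 2 groups fitted and 2 with a PE150 term or in tagged libraries (omissions 0 to 1). CD229+CD11c+ against CD229+CD11c- had 1, and 0 with total-count scaling or any offsets, 2 with 2 groups fitted or a PE150 term and 3 in tagged libraries (omissions 0 to 0). CD229-CD11c- against basal had 0 in every setting run. Among called values, CD229+CD11c- signs reversed at Sox17 against basal (-0.094 with density and -0.095 with both offsets) and at Esam (-0.14 and -0.15 against basal, -0.11 and -0.12 against CD229-CD11c-, -0.12 with the block and both offsets); Sox17 against CD229-CD11c-, not called, went from 0.22 to -0.14 and -0.15. RLE factors, no filter on low counts and a filter at a mean count of 50, which left out 2 of the 24, changed no call of a member region. Where an omission leaves 2 libraries, the test has fewer samples.

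Between the 2 CD229+ subsets the replicate numbers did not pair the libraries by the rule used (every pair over 0.1), with same-number correlations of 0.083 to 0.33. With a replicate block the counts were 7 for CD229+CD11c- against CD229-CD11c-, 4 for CD229+CD11c+ against CD229-CD11c- and 2 for CD229+CD11c+ against CD229+CD11c-, the Flt1 region at 85.7 kb and Sox18 (-0.39, adjusted p = 0.00056); with the block and both offsets they were 5, 2 and 3. The block changed no other call of a member region than those named. Basal libraries share too few numbers for a block. Depth limits the thin regions most: the Sox7 region 18.8 kb upstream had 22 to 47 tags a library and a fold change SE of 0.26.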
